A study of Mus musculus with 3 samples.

Results

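The genes described here encode 33 proteins of the lysosome: 9 cysteine cathepsins, 4 other proteases, 7 glycosidases, 6 lipid hydrolases, carriers or activators, 6 membrane proteins and the secreted regulator progranulin. They were taken by symbol from the 55536 annotated genes, and all 33 were matched. Their RNA was measured on chromatin by total RNA-seq with ribosomal RNA removed. The cells were macrophages grown from the bone marrow of C57BL/6J mice, and all had been given 100 ng/ml lipid A, a TLR4 agonist, during a first exposure of 12 h. Lipid A was then washed out for 12 h, and 100 ng/ml was given again for 30 min, per the labels. There was 1 group of 3 biological replicates, from separate biosamples that share 1 donor identifier. Nothing in the labels says that they came from different animals, so p-values over the libraries measure only the spread between these samples. No untreated or singly treated group was analysed here, so the levels say nothing of what lipid A changed.

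The lysosome is an acidic organelle in which hydrolases break down proteins, sugars and lipids taken up by endocytosis or delivered by autophagy. Its soluble enzymes are made in the secretory pathway, carried by sorting receptors, and in the case of most cathepsins activated by removal of a propeptide. Heavily glycosylated membrane proteins line the organelle, and a group of basic helix-loop-helix leucine zipper factors, Tfeb, Tfe3, Mitf and Tfec, can bind E-boxes with the core CACGTG near many of these genes. Macrophages are rich in lysosomes, which they use to digest what they engulf and to process antigen. The chromatin fraction is enriched for nascent and incompletely spliced RNA, so a level here is neither that of the mature mRNA nor that of the protein.

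Total expected counts were 12532722, 18395358 and 18237730 in replicates 1, 2 and 3, of which the 33 genes took 107848, 131695 and 132257. Replicate 1 was made from 1 µg of RNA, replicate 2 from 250 ng and replicate 3 from 500 ng, so input and replicate cannot be told apart. All 10 macrophage markers, such as Adgre1 and Csf1r, lay above 1 TPM, with summed levels of 1143 to 1409 TPM. In the limma test described below, 50.5% of all genes tested and 61.1% of protein-coding ones lay above that floor. Of 62 markers of other cells, 8 lay above 1 TPM (Atp6v0d2, Nfatc1, Batf3, Cd4, Alas2, Pf4, Gp9 and Kdr), and none of the 12 markers of granulocytes or mast cells did in limma, at an adjusted or an unadjusted p under 0.05 (0 of 12 in each case). In bulk samples of this kind, fewer cells of a type and less RNA per cell cannot be told apart.

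The promoters are shown first, because the E-box core was the sequence feature searched for in these genes. RefSeq promoter sequences (GRCm38.p6, the mm10 assembly; 250 bases before to 50 after a start) were matched for 29 of the 33 genes; Npc1, Ctsb, Ctsh and Asah1 were not matched. CACGTG, which reads the same on both strands, was present in 10 of the 29 promoters (34.5%), against 921 of 7392 protein-coding genes above 1 TPM (12.5%) and 2187 of 27025 genes in all (8.09%). The longer TCACGTGA was present in 4 of 29 (13.8%), against 2.54% of the coding genes above 1 TPM and 1.12% of all genes. The still longer TCACGTGAC, searched on both strands, was present in the same 4 promoters, those of Ctsa, Ctsd, Mcoln1 and Gla, against 2.15% and 0.895%. The palindrome made by a G directly before TCACGTGAC was in 0 of 29, against 0.96% and 0.37%. Each longer motif contains the shorter ones, and a match of letters is not a measured binding site.

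The 4 promoters with the longest match, and that of Lamp1, which held 4 copies of the core, are printed below, 5′ to 3′ on the gene's strand, with the motif in capitals. They lie at chr2:164833523-164833822 (plus strand) for Ctsa, chr7:142387778-142388077 (minus strand) for Ctsd, chr8:3500269-3500568 (plus strand) for Mcoln1, chrX:134600956-134601255 (minus strand) for Gla and chr8:13158911-13159210 (plus strand) for Lamp1.
Ctsa promoter: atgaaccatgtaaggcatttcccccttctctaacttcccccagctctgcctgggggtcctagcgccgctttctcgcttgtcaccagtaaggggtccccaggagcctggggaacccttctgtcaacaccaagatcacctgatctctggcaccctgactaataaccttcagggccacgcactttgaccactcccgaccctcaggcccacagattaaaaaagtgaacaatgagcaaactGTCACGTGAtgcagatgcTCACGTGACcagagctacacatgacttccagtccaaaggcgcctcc
Ctsd promoter: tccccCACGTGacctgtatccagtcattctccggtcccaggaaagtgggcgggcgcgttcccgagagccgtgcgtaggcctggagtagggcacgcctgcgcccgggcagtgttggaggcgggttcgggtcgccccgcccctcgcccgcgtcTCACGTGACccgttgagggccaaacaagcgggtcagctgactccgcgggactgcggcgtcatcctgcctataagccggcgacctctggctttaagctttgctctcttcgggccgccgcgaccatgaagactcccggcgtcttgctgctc
Mcoln1 promoter: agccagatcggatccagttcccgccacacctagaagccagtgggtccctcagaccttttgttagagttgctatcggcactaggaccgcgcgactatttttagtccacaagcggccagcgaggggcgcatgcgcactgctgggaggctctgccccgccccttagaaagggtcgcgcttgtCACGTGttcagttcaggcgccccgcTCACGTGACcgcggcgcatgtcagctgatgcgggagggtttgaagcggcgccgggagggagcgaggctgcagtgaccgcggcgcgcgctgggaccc
Gla promoter: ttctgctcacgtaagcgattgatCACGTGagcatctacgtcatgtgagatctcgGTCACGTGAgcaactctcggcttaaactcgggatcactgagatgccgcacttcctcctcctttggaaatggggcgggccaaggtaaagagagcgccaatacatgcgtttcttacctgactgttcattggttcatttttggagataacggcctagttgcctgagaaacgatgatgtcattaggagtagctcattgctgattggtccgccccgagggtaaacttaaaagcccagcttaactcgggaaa
Lamp1 promoter: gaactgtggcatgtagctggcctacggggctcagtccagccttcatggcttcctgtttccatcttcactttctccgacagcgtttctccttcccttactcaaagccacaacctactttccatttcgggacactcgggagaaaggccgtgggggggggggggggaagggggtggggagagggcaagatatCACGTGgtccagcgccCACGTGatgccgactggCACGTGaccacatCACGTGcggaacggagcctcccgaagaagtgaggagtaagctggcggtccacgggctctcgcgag
With the start base counted as 0, the first bases of the cores stood at -12 and 5 in Ctsa, at -245 and -98 in Ctsd, at -71 and -45 in Mcoln1 and at -227 and -194 in Gla. In Lamp1 they stood at -61, -45, -28 and -15.

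Each of the other 5 promoters with a match held 1 core, which is shown with 10 bases on either side. The windows lie at chr9:114401020-114401045 (Glb1, plus strand), chr11:119267813-119267838 (Gaa, plus), chr12:102439126-102439151 (Lgmn, minus), chr13:64370741-64370766 (Ctsl, minus) and chr19:4855076-4855101 (Ctsf, plus).
Glb1 window: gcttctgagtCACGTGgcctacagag
Gaa window: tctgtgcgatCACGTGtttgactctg
Lgmn window: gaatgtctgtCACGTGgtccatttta
Ctsl window: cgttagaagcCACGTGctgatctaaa
Ctsf window: ccccgtggtcCACGTGcctcgcgtaa
The core began at -48 in Glb1, -140 in Gaa, -49 in Lgmn, -236 in Ctsl and -79 in Ctsf. The starts used by RefSeq lay 900 bases inside the annotated gene for Ctsa, 721 for Lgmn, 370 for Ctsl and 211 for Ctsd, and the window misses the outermost annotated start of Ctsa, Lgmn and Ctsl. Levels of the genes with and without the core overlapped broadly: the 10 with it had a median of 38.4 TPM (1.25 to 292), and the 19 without it a median of 67.2 TPM (0.753 to 1054).

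Most of these genes were well represented on chromatin. TPM is a read count corrected for transcript length and scaled to a fixed sum, which is meant to put different genes on a common scale. The levels still depend on the quantification. In the second transcript tables described below, 4 of the 33 genes were over 2-fold higher, against 17.5% of protein-coding genes of at least 1 TPM. The median of the 33 genes was 61.6 TPM, against 4.17 TPM over the 15120 protein-coding genes with any signal. By library the medians were 59.6, 64.9 and 58.8 TPM for the 33 genes, against 3.74, 4.42 and 4.06 TPM for the coding genes. Together the 33 genes held 1.65%, 1.59% and 1.51% of all protein-coding TPM in replicates 1, 2 and 3.

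A moderated one-sided limma test of log2(TPM + 0.1), adjusted by Benjamini-Hochberg over the 24180 genes with a nonzero TPM, was used to set each gene against fixed floors of 1, 10 and 100 TPM. Above 1 TPM lay 31 of the 33 genes, against 50.5% of all genes tested and 61.1% of protein-coding ones. Above 10 TPM lay 29 of 33, against 20.2% and 28%. Above 100 TPM lay 7 of 33, against 1.39% and 1.66%; these were Gpnmb, Psap, Ctsc, Ctsb, Grn, Ctsd and Ctsa. No gene of the 33 lay below 1 TPM in the limma test, adjusted or at an unadjusted p under 0.05, against 30.4% of all genes below it after adjustment. The calls above 100 TPM were not kept in every setting. Without replicate 1, or with all genes entered whether or not they had signal, 0 of 33 passed after adjustment. The share of all genes passing was then 0% as well, and 10 of 33 had an unadjusted p under 0.05 in each case (limma).

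The levels were unevenly spread. The highest gene, Gpnmb, was 1399 times the lowest, Ctsk, by mean TPM, and the 7 highest held 71.3%, 70.3% and 70.8% of the TPM of all 33. In the order of mean levels, only 7 of the 32 neighbouring pairs had ranges that did not overlap, and 12 kept the same order in all 3 libraries. The pairs apart in this sense were Gpnmb and Psap, Psap and Ctsc, Ctsa and Lamp2, Tpp1 and Hexa, Hexa and Ppt1, Cd63 and Gaa, and Glb1 and Ctsf.

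**Figure D1:**
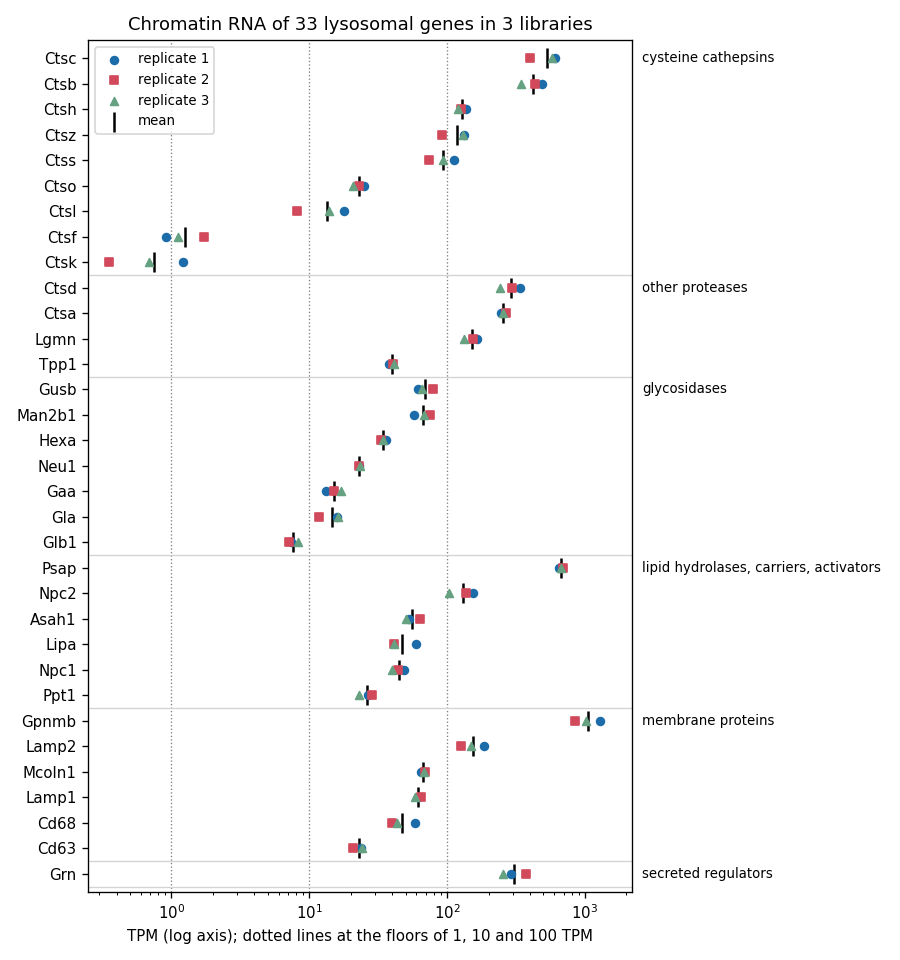
TPM of each gene in replicates 1, 2 and 3 (log axis), grouped by role, with the mean as a black bar and the floors as dotted lines. Gpnmb, with 845 to 1294 TPM, is at the top of the scale, and Ctsf and Ctsk lie on either side of 1 TPM.

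Among the 9 cysteine cathepsins, 7 lay above 1 TPM, 6 above 10 TPM and 2 above 100 TPM, and the median was 93.6 TPM. Ctsc (chr7:88278085-88310888, plus strand) encodes dipeptidyl peptidase I, which activates serine proteases of granules. Its levels were 612, 403 and 578 TPM in replicates 1, 2 and 3, and their mean was 531 ± 112 TPM (SD, n = 3), 2.38 above the 100 TPM floor on the log2 scale (adjusted p = 0.00357, limma). Replicate 2 was the lowest, and all 3 libraries were far above the floor.

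Ctsb (chr14:63122462-63145923, plus strand), an endopeptidase that also removes dipeptides from the C terminus, had 492, 435 and 342 TPM and a mean of 423 ± 75.9 TPM (log2 over 100 TPM 2.06, adjusted p = 0.00379, limma). Its range overlapped that of Ctsc, and Ctsb was the higher of the pair in replicate 2. Ctsh, mainly an aminopeptidase, had 138, 127 and 120 TPM (mean 128 ± 9.29), and Ctsz, a carboxypeptidase, had 132, 92.3 and 130 TPM (mean 118 ± 22.3). Neither passed the 100 TPM floor in the limma test, with adjusted p-values of 0.351 for Ctsh and 1 for Ctsz.

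Ctss, which cleaves the invariant chain during antigen presentation, averaged 93.6 ± 18.9 TPM, and Ctso 22.9 ± 2.2 TPM. Ctsl, a broad endopeptidase, had 18, 8.21 and 13.9 TPM, with a mean of 13.4 ± 4.91 TPM. It was above 1 TPM (log2 difference 3.54, adjusted p = 4.11e-05, limma) and did not pass 10 TPM (adjusted p = 0.437), with replicate 2 under that floor and the other libraries above it. This call depends on the setting, as Ctsl passed 10 TPM without replicate 2 and in the second transcript tables described below.

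The remaining pair of cathepsins stood apart at the low end. Ctsf, which in mouse macrophages can process the invariant chain, had 0.91, 1.73 and 1.11 TPM (mean 1.25 ± 0.428) from 63 expected counts in all, with a 95% Poisson interval of 48.4 to 80.6 that covers counting error only. Its level did not pass 1 TPM (log2 difference 0.25, SE 0.30, adjusted p = 0.405, limma). Ctsk (chr3:95499256-95509362, plus strand), the collagen-degrading cathepsin of osteoclasts, had 1.22, 0.35 and 0.69 TPM (mean 0.753 ± 0.438) from 37 expected counts in all, with an interval of 26.1 to 51. It was neither above 1 TPM (log2 difference -0.50, SE 0.41, adjusted p = 1, limma) nor below it (adjusted p = 0.363). Of the 8 osteoclast markers, Atp6v0d2 and Nfatc1 were above 1 TPM, Calcr and Mmp9 were at 0 in all libraries, and the summed level was 17.3, 18 and 17.1 TPM.

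The 4 other proteases were all above 10 TPM, with a median of 203 TPM. Ctsd (chr7:142375911-142388038, minus strand), the main aspartic protease of lysosomes, had 338, 295 and 244 TPM and a mean of 292 ± 47.2 TPM (log2 over 100 TPM 1.53, adjusted p = 0.00686, limma). Ctsa (chr2:164832873-164841032, plus strand), a serine carboxypeptidase that also shields Neu1 and Glb1 from degradation, had 245, 269 and 254 TPM and a mean of 256 ± 12.2 TPM (log2 over 100 TPM 1.35, adjusted p = 0.00418, limma). The libraries agreed more closely for Ctsa than for Ctsd, and the ranges of the 2 genes overlapped. Lgmn, the asparaginyl endopeptidase legumain, had 165, 155 and 133 TPM (mean 151 ± 16.4, adjusted p against 100 TPM 0.0939, limma). Tpp1, a tripeptidyl peptidase, averaged 39.8 ± 1.83 TPM.

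The 7 glycosidases lay lower in the gene tables, with a median of 23 TPM and 3.91%, 5.17% and 4.9% of the TPM of the 33 genes. None was above 100 TPM in the limma test (0 also at an unadjusted p under 0.05), against 1.66% of protein-coding genes. In the second transcript tables described below, Hexa, Gla, Gaa and Glb1 were higher, at means of 57.2, 54.2, 34.8 and 10.3 TPM. Gusb, Man2b1 and Neu1 were lower there, at 65.3, 54.8 and 21.1 TPM. Gusb (beta-glucuronidase) averaged 68.8 ± 8.89 TPM, Man2b1 (an alpha-mannosidase) 67.2 ± 8.76 TPM, and Hexa (a beta-hexosaminidase subunit) 34.3 ± 1.45 TPM. Neu1, a sialidase, had 22.8, 23 and 23.2 TPM, and its coefficient of variation of 0.89% was the smallest of the 33. This small spread holds only for the gene tables, as Neu1 had 23.5, 19.5 and 20.3 TPM in the second tables (SD 2.1). Gaa, the acid alpha-glucosidase that breaks down glycogen, averaged 15.1 ± 1.91 TPM and passed 10 TPM (adjusted p = 0.0131, limma).

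Gla, an alpha-galactosidase, had 16, 11.7 and 16.3 TPM (mean 14.7 ± 2.56) and also passed 10 TPM (adjusted p = 0.0318, limma). The calls of Gaa and Gla above 10 TPM are close to the threshold: with all genes entered, or without replicate 3, neither passed, Gla did not pass without replicate 1, and Gaa did not pass without replicate 2. Glb1, a beta-galactosidase, had 7.38, 7.14 and 8.32 TPM (mean 7.61 ± 0.624), above 1 TPM in all libraries and under 10 TPM in all of them.

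Of the 6 genes of lipid handling, all lay above 10 TPM and 1 above 100 TPM. Psap (chr10:60277627-60302597, plus strand), the precursor of the saposins that help hydrolases reach sphingolipids, had 645, 694 and 674 TPM and a mean of 671 ± 24.7 TPM (log2 over 100 TPM 2.74, adjusted p = 0.00283, limma). It varied little between libraries, with a coefficient of variation of 3.68%. Npc2, the soluble cholesterol carrier, had 153, 138 and 104 TPM (mean 131 ± 25.5). Its membrane partner Npc1 averaged 44.5 ± 4.46 TPM. Asah1 (acid ceramidase) averaged 55.9 ± 7.14 TPM, Lipa (lysosomal acid lipase) 47.2 ± 10.7 TPM and Ppt1 (a palmitoyl-protein thioesterase) 26.1 ± 2.73 TPM.

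The 6 membrane proteins were all above 10 TPM. Gpnmb (chr6:49036546-49070929, plus strand), a glycoprotein of lysosomes and melanosomes that is abundant in phagocytes, had 1294, 845 and 1023 TPM and a mean of 1054 ± 226 TPM (log2 over 100 TPM 3.37, adjusted p = 0.00283, limma). It ranked 11 among protein-coding genes by mean TPM and was above every other gene of the 33 in each library. Lamp2, a structural glycoprotein with a role in chaperone-mediated autophagy, had 184, 127 and 148 TPM (mean 153 ± 29, adjusted p against 100 TPM 0.198, limma). Lamp1, its close relative, averaged 61.6 ± 3.09 TPM.

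Mcoln1, a calcium-permeable channel, averaged 67.3 ± 2.09 TPM, the macrophage sialomucin Cd68 47.2 ± 9.85 TPM and the tetraspanin Cd63 22.9 ± 1.81 TPM. Grn (chr11:102430315-102437048, plus strand) encodes progranulin, which is secreted, taken up and cut into granulins in the lysosome. Its levels were 292, 377 and 253 TPM, with a mean of 307 ± 63.4 TPM (log2 over 100 TPM 1.60, adjusted p = 0.00828, limma). Replicate 2 was the highest library for Grn and the lowest for Gpnmb.

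The libraries were compared after TMM scaling of CPM (read counts scaled to library size, with no length correction), for the 32 genes that passed the filter on low counts (Ctsk did not). The median difference of the 32 genes from the mean of the other libraries was 0.14 on the log2 scale in replicate 1, -0.07 in replicate 2 and 0.00 in replicate 3, against -0.05, 0.04 and 0.03 over 10850 protein-coding genes. Several genes were low in replicate 2: Ctsc by -0.66, Ctsl by -0.59, Ctsz by -0.57, Gpnmb by -0.56, Ctss by -0.54, Cd68 by -0.44, Gla by -0.43 and Lamp2 by -0.41. Ctsf, Man2b1, Grn, Gusb and Asah1 were instead high in replicate 2, by 0.73, 0.25, 0.22, 0.20 and 0.17. The value of Ctsf rests on few counts, 11, 32 and 20 in replicates 1, 2 and 3. The genes did not all differ in the same direction between libraries.

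With 1 group these differences have no test. The summed macrophage markers were 1185, 1143 and 1409 TPM in replicates 1, 2 and 3, with Cd14 at 94.1, 62.8 and 245 TPM and C5ar1 at 54.8, 22.5 and 56 TPM. The summed markers of granulocytes or mast cells were 1.98, 0.35 and 1.08 TPM, with Mpo, Elane, Ly6g, S100a8 and Mcpt8 at 0 in all libraries, and those of lymphoid cells 8.18, 7.13 and 8.82 TPM. These 3 sums were lowest in replicate 2, which also had the least RNA input. Single genes made up much of 2 of them. The lymphoid sum was mostly Cd4, at 7.4, 6.54 and 8.05 TPM. Kit, at 1.33, 0.1 and 0.55 TPM, was the largest part of the granulocyte or mast cell sum in replicates 1 and 3. Other sums were ordered differently. Dendritic cell markers summed to 5.73, 9.4 and 5.63 TPM, highest in replicate 2. Erythroid or megakaryocyte markers summed to 23.6, 22.1 and 16 TPM and stromal, endothelial or epithelial markers to 10.2, 6.92 and 6.19 TPM, both lowest in replicate 3. The part of these markers in the differences was not tested.

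**Figure D2:**
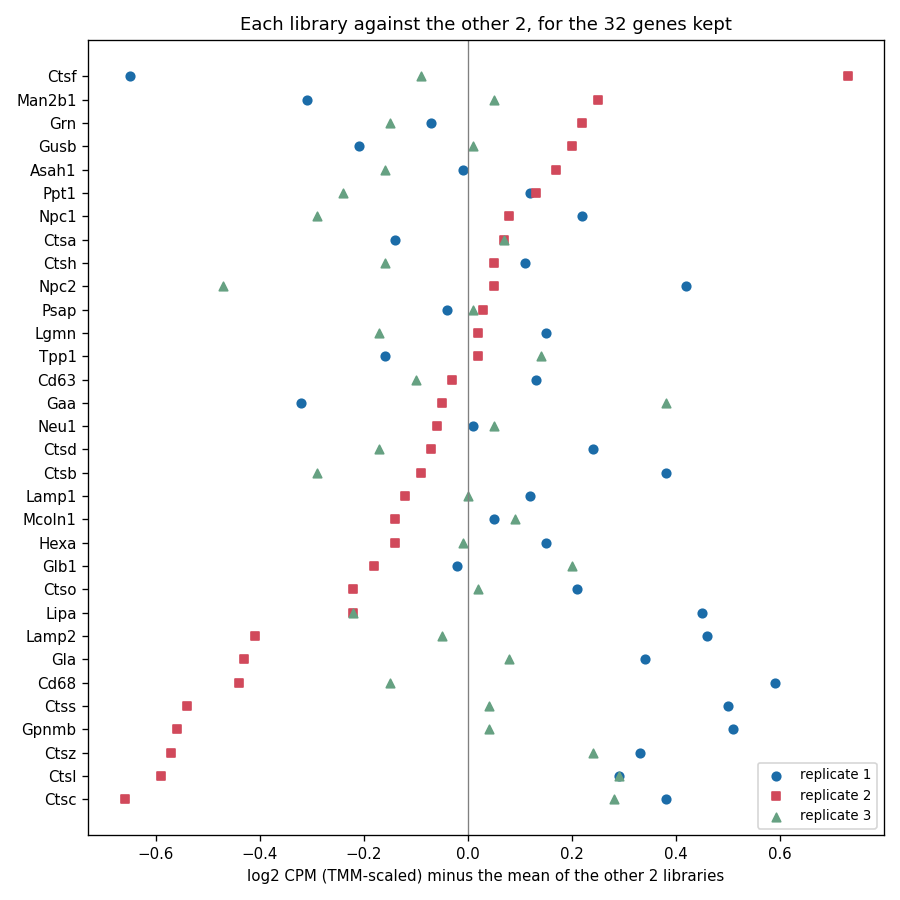
Difference in TMM-scaled log2 CPM of each library from the mean of the other 2, for the 32 genes kept, ordered by replicate 2. Ctsc is at the bottom, at -0.66 in replicate 2, and Ctsf at the top, at 0.73, from only 63 expected counts in all.

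The spread over libraries was modest. The median coefficient of variation of TPM was 12.9% for the 33 genes, against 17.5% for 10230 protein-coding genes of at least 1 TPM, and 24 of the 33 were under 20%. The median biological coefficient of variation from edgeR was 0.18 for the 32 genes kept, against 0.201 for the coding genes kept. Neither comparison was matched for level, so they do not show whether these genes vary less than others at equal levels. The largest spread in TPM was that of Ctsk, at 58.2%, followed by Ctsl at 36.7% and Ctsf at 34.2%.

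A large part of the counts of some genes was assigned to transcripts annotated in the retained-intron class. Neu1 had 93.9%, 97.6% and 97.4% of its expected counts on such transcripts, with a mean of 96.3 ± 2.07% (SD, n = 3). Ctsh had 85.8%, 80.9% and 72.8% (mean 79.8 ± 6.59%), and Tpp1 had 77.5%, 77.4% and 74.5% (mean 76.5 ± 1.73%). In all 3 genes every library had most of its counts on these transcripts. Npc2 averaged 67.8 ± 2.49% and Mcoln1 53.8 ± 2.81%. The main transcripts of this class in Npc2 and Mcoln1 hold no whole intron of the main coding transcript, so these shares describe the annotation class only. Ctsf averaged 74.7 ± 26.4%, from few counts. At the other end, Psap, Ctss, Ctsz, Hexa, Gaa, Gla, Glb1, Ppt1, Cd68 and Ctsk have no annotated transcript of this class, and their share is therefore 0.

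The shares were near those of other genes. A transcript of this class is annotated for 23 of the 33 genes (69.7%), against 68.1% of 7573 protein-coding genes with a mean of at least 100 expected counts. Among genes that have one, the median share was 27.6% for the 23 genes and 28.2% for the 5159 coding genes. The share was over 50% for 6 of 33 genes (18.2%), against 18.7%. The limit on expected counts was not applied to the 33 genes, so Ctsf, with 63 counts in all, and Ctsk, with 37, are included. Ctsf is 1 of the 6. Over all 33 genes the median was 17.3%, against 11.8%, and by library 21.7%, 16% and 14.2%, against 12.7%, 12.1% and 10.1%. Replicate 3 had the lowest share for 19 of the 23 genes, and for 61.7% of 5123 protein-coding genes.

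**Figure D3:**
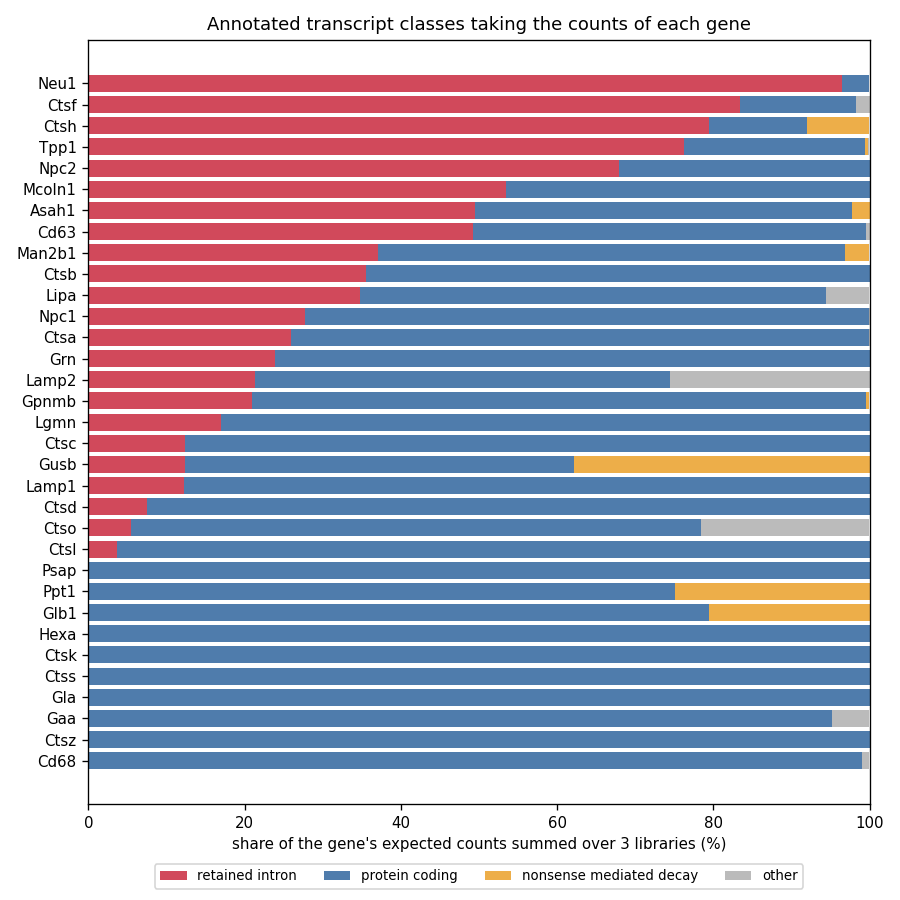
Share of each gene's expected counts, summed over the 3 libraries, on annotated retained-intron, protein-coding, nonsense-mediated-decay and other transcripts. Neu1 is nearly all on retained-intron transcripts, while Psap and the genes with no such annotation are at 0%.

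The introns concerned could be placed by comparing each main retained-intron transcript with the main coding one. Neu1-202 keeps intron 3 of the 5 introns of Neu1-201 (chr17:34932829-34934002, plus strand, 1174 bases) and took 96.2% of the gene's counts, against 3.74% for Neu1-201. Tpp1-206 keeps intron 3 of 12 (chr7:105750331-105751589, minus strand, 1259 bases) and took 70.6%, against 23.0% for Tpp1-201. Ctsh-203 keeps intron 8 of 11 (chr9:90067109-90068404, plus strand, 1296 bases) and took 53.3%, against 12.3% for Ctsh-201. The 30 bases around both ends of these introns, 15 on either side of the exon boundary, are shown with the GT and AG of the intron in capitals, because they are the splice sites that the retained transcripts leave unused. They lie at chr17:34932814-34932843 and chr17:34933988-34934017 in Neu1, at chr7:105751575-105751604 and chr7:105750316-105750345 in Tpp1, and at chr9:90067094-90067123 and chr9:90068390-90068419 in Ctsh, on the strands given above.
Neu1 5′ splice site: ggctcaggcattcagGTttcaccctgtgga
Neu1 3′ splice site: tcctcttcttaacAGaaacagcgggagcct
Tpp1 5′ splice site: gctctcctcaatatgGTgcctatcagttgg
Tpp1 3′ splice site: tctgaatccctgcAGgaaagtacctaaccc
Ctsh 5′ splice site: ccttacataggcaagGTaactgtgggtggc
Ctsh 3′ splice site: tttcaccccgaacAGgatagttcatgcaga
All 3 introns begin with GT and end with AG. Cd63-205 is a single exon that spans all 7 introns of Cd63-201 and took 48.8% of the counts, against 47.8% for Cd63-201, so this entry has the structure of the unspliced gene. The main retained-intron transcripts of Asah1, Mcoln1 and Npc2 hold no whole intron of the main coding transcript.

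Levels could also be read from the second transcript tables, which were derived directly from the reads. Summed per gene, 21 of the 33 genes were higher there, with a median log2 ratio of 0.21, against 0.35 over 10220 protein-coding genes of at least 1 TPM. Over 2-fold higher were 4 genes, Ctsl, Gla, Ctsk and Gaa, against 17.5% of the coding genes. Ctsl had 70.8, 40.6 and 54.6 TPM there (mean 55.3 ± 15.1), which is 4.14 times its level in the gene tables. Gla had 72.1, 42.5 and 47.9 TPM (mean 54.2 ± 15.8), 3.69 times its level there. For both genes the ranges over the same 3 libraries did not overlap between the gene tables and the second tables. This also held for other genes of the 33, among them Gaa, Ctsh, Hexa and Lgmn, and the share over all genes was not counted. The order above as a whole therefore holds only for the gene tables. Ctsh, for example, averaged 222 TPM in the second tables, above Lamp2 at 138 TPM.

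The transcripts behind the Ctsl difference also changed. Ctsl-205, a protein-coding entry of 6168 bases, took 21.9% of the gene's expected counts in the first transcript tables and 60.8% in the second ones, while Ctsl-201, of 1971 bases, took 73.4% and 10.4%. Ctsk averaged 1.87 ± 0.833 TPM and Ctsf 0.954 ± 0.352 TPM in the second tables, on the other sides of 1 TPM from their means in the gene tables, and neither passed the test there. The cause of the differences between tables was not tested.

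**Figure D4:**
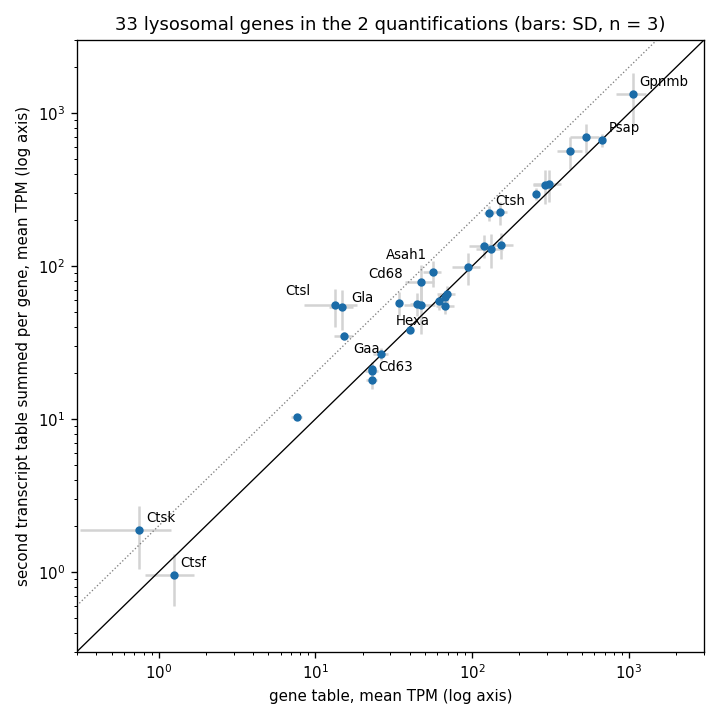
Mean TPM of each gene in the gene tables (x axis) and in the second transcript tables summed per gene (y axis), both on log axes, with SD bars (n = 3), the line of equal values (solid) and that of 2-fold (dotted). Ctsl and Gla are farthest above the line of equal values, while Psap lies on it.

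Other annotated genes overlap 13 of the 33, and 12 of the 16 overlapping genes are on the opposite strand. Whether the counting used strand is not given in the sources used here, so such values are uncertain. Inside Ctsc, the lincRNA Gm26522 on the opposite strand (chr7:88278787-88283529) had 188, 114 and 160 TPM (mean 154 ± 37.2), lowest in replicate 2 as Ctsc was. Over Ctsd on the same strand, the protein-coding entry Gm49369 had 29.3, 15.8 and 50.2 TPM (mean 31.7 ± 17.3) in the gene tables and a mean of 222 TPM in the second tables. The pseudogene Hmgb1-ps5, within Ctss on its strand, averaged 52.9 ± 21.7 TPM. Pltp, on the opposite strand from Ctsa, averaged 69 ± 21 TPM.

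The wider lysosomal system was described by 86 further genes in 6 lists, of which 83 had signal. Above 1 TPM lay 75 of them, above 10 TPM 47 and above 100 TPM 3, and 1 was below 1 TPM, against 50.5%, 20.2%, 1.39% and 30.4% of all genes tested (limma, as above). The 3 calls above 100 TPM were lost when any 1 replicate was left out and when all genes were entered: 0 passed after adjustment, and 6 had an unadjusted p under 0.05 in each case. The number below 1 TPM ranged from 0 to 5 over the alternatives. Of 26 other hydrolases and cofactors, 22 were above 1 TPM and the median was 11.7 TPM. Near the top of this list were Acp2, an acid phosphatase, at 115 ± 19.1 TPM, and Galc, a galactosylceramidase, at 63 ± 0.858 TPM. The lowest were Smpd1 (acid sphingomyelinase) at 0.707 ± 0.214 TPM and Acp5 (tartrate-resistant acid phosphatase) at 0.577 ± 0.146 TPM, although Acp5 averaged 3.21 TPM in the second tables.

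Of 20 other membrane proteins, 19 were above 1 TPM and the median was 16.6 TPM. Clcn7, a chloride-proton exchanger, averaged 229 ± 36.7 TPM, the cation channel Tpcn2 150 ± 25.6 TPM and Cln3 147 ± 22.2 TPM, while Tmem192 averaged 5.45 ± 1.03 TPM and Laptm4b 0.537 ± 0.112 TPM. Of 11 genes of enzyme sorting, 10 were above 1 TPM and the median was 10.2 TPM. The adaptor Gga1 averaged 52.1 ± 3.99 TPM, a mannose 6-phosphate receptor, M6pr, 36.9 ± 1 TPM and Gnptab, which makes the mannose 6-phosphate tag, 32.2 ± 4.04 TPM. Cln6 was at 3.71 ± 0.798 TPM and the receptor Sort1 at 1.31 ± 0.168 TPM. The order of the sorting genes holds only for the gene tables. Igf2r averaged 16.5 TPM there, but in the second tables it was the highest of this list at 102 TPM, above Gga1 at 72.9 TPM.

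All 8 genes of the E-box binding factors and their regulators were above 10 TPM, with a median of 54.7 TPM. Fnip2, which acts with folliculin on the lysosomal Rag GTPases, had 378, 269 and 254 TPM (mean 300 ± 67.3). Folliculin itself, Flcn, averaged 60.6 ± 9.58 TPM and Tfec 60.3 ± 19.5 TPM. The lowest were Zkscan3, described as a repressor of lysosomal genes, at 45.2 ± 5.42 TPM, and Tfeb at 19 ± 2.34 TPM. This order holds only for the gene tables: in the second tables Tfeb averaged 59 TPM and Zkscan3 78.4 TPM, and the lowest were Fnip1 at 58.1 TPM and Tfe3 at 45.6 TPM. Tfec was lowest in replicate 2, at 39.1 TPM, against 77.6 and 64.2 TPM in replicates 1 and 3.

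Of 14 nutrient-sensing genes, 13 were above 1 TPM and the median was 25.6 TPM. The amino acid transporter Slc38a9 averaged 66.1 ± 3.21 TPM, Lamtor3 49.5 ± 6.36 TPM and Rptor 47.2 ± 6.16 TPM, while Rraga averaged 2.76 ± 0.366 TPM and Lamtor2 1.2 ± 0.907 TPM. Rragc averaged 31.7 TPM in the gene tables, but in the second tables it was at 81.2 TPM, above Slc38a9 at 60.8 TPM. The 7 cathepsin inhibitors were the lowest list, with a median of 0.167 TPM, which is the level of Cst6 alone. Of them, 3 were above 1 TPM and none above 10 TPM in the limma test (0 also at an unadjusted p under 0.05). Cstb averaged 8.21 ± 0.77 TPM, Cst7 4.27 ± 0.817 TPM and Cst3 3.24 ± 0.347 TPM, and Stfa1, Stfa2 and Stfa3 were at 0 in all libraries. Cst6 had 0, 0.5 and 0 TPM, from 1 expected count in all, and was below 1 TPM (adjusted p = 0.0149, limma), but in the second tables it averaged 1.16 TPM, on the other side of the floor.

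**Figure D5:**
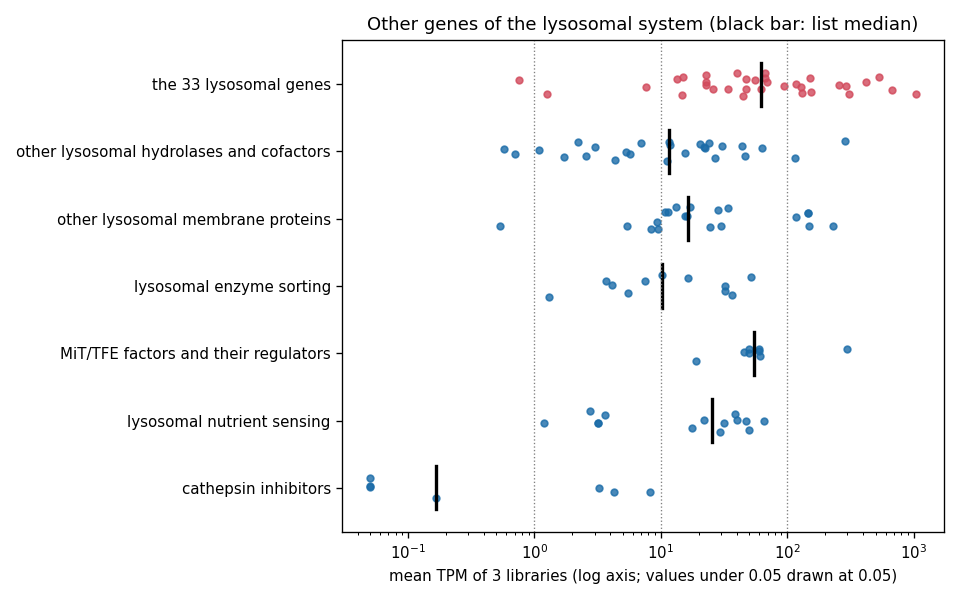
Mean TPM over 3 libraries (log axis) of the 33 genes and of each list of further lysosomal genes, with the list median as a black bar and the floors as dotted lines. The E-box binding factors and their regulators have the highest median of the further lists, 54.7 TPM, and the cathepsin inhibitors the lowest, 0.167 TPM. The latter is the level of Cst6, from 1 expected count.

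Promoters of the further genes held CACGTG in 17 of the 68 matched (25%) and TCACGTGA in 7 (10.3%), against 12.5% and 2.54% of the protein-coding genes above 1 TPM.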

How the data were processed

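Chromatin RNA was measured in 3 libraries of 1 group. The deposited gene and first transcript tables hold expected counts and TPM from transcriptome alignments, and the second transcript tables hold estimated counts and TPM derived directly from the reads, per the file headers and the text listings deposited with the samples. The assembly was mm10 and the annotation release M21, per the submitters' processing notes. For tools, their versions and strand, nothing is given in the sources used here. Rows that name no gene (26345, all but a trace of their counts in phiX, 1.04%, 0.425% and 0.401% of the total) were left out of tests and library sizes.

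An intercept-only limma 3.58.1 model with a trend was fitted to log2(TPM + 0.1) of the 24180 genes with signal and tested one-sided against 1, 10 and 100 TPM, calls being made at a Benjamini-Hochberg adjusted p under 0.05. On this scale differences of genes near 0.1 TPM are understated. Spread between libraries came from edgeR 4.0.16 (TMM, filterByExpr, which kept 14140 genes) on expected counts rounded to whole numbers, and DESeq2 1.42.0 gave other size factors. Scripts were tested on simulated data. Chi-square per degree of freedom between libraries was 44.5 to 84.5, so none was a copy of another. Retained-intron shares are expected counts on transcripts annotated with that class. Intervals cover counting error only.

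The 33 genes, the further lists and the tests were chosen with earlier results of these data known. The text names all 33 genes, gives each library's value for those with a mean of at least 100 TPM and for the 5 lowest, and names the 3 highest and 2 lowest genes of each further list, except 1 gene that is not reported here. Other library values shown were chosen after they were seen, as were further genes named for their level in the second tables. R 4.3.3 and python 3.11.15 were used.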

Additional observations from a re-analysis of the deposited data

Results flagged for a closer look

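The phiX control, a spike-in row that names no mouse gene and enters no comparison, took 1.04% of expected counts in replicate 1, 0.425% in replicate 2 and 0.401% in replicate 3. It was picked out because signal appeared in a row outside the main measurement. Its part in any level was not tested.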

How the results depend on the processing

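No paired analysis was possible because all libraries belong to 1 group. The counts of the 33 genes above 1 TPM (31 in every setting run) and above 10 TPM (27 to 30), those of the further genes above 1 and 10 TPM, and the 10 promoters with CACGTG stayed within 1.5 times the values reported. The 7 genes above 100 TPM became 0 with no filter on low values, and 0 to 6 when each replicate was left out in turn; Ctsd was lost without replicate 2, and Ctsa and Grn without replicate 3. Adjusted p-values of the 7 then lay between 0.121 and 0.315 without replicate 1 and between 0.497 and 1 with no filter (limma). The second transcript tables called 8, with Ctsh added. In alternatives chosen after seeing the data, the 3 further genes above 100 TPM became 0 with no filter and 0 without each replicate in turn. The 1 further gene below 1 TPM became 3 with a pseudocount of 1, 5 with no filter, and 0 with a mean TPM over 0.1, in the second tables and without each replicate in turn; in these settings, in the same order, 3, 6, 3, 0 and 0 to 2 further genes had an unadjusted p under 0.05 (limma). The median TPM of the 33 genes was 196 when TPM was rescaled to nuclear protein-coding genes, against 13.3 for the coding genes tested. The median biological coefficient of variation was 0.151 to 0.226 when each replicate was left out. The median retained-intron share was 34.3% by TPM in place of counts. Of 165 alternatives for the levels of single genes over 1 TPM, 163 kept their direction and call. The others were Ctsf, at -0.12, and Ctsk, at 0.75 (adjusted p = 0.0585, limma), both on the log2 scale in the second transcript tables; the cause was not tested. Depth limits Ctsf and Ctsk, with 63 and 37 expected counts.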
